A study of Mus musculus with 8 samples.

Results

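The genes described here are 5 kelch-like genes of striated muscle, *Klhl30*, *Klhl31*, *Klhl38*, *Klhl40* and *Klhl41*, and *Ky*, the kyphoscoliosis peptidase gene. They were taken by symbol from a table of 53465 mouse genes, and the group was chosen by the fold changes of *Klhl41* and *Ky*, which were far lower in neuregulin-1 gain-of-function ventricles than in wild-type ones. Hence the difference between genotypes in these 6 genes is given as a description, with no test. All 6 passed the filter on low counts, among 15580 genes that did.

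Kelch-like proteins carry a BTB domain, through which they bind the scaffold cullin-3, and a propeller of kelch repeats, through which they hold a client protein. Most act as the client-binding part of a cullin-3 ubiquitin ligase, and the muscle members are known above all from the sarcomere: *KLHL40* and *KLHL41* are genes of nemaline myopathy, a disease of thin filaments, and both proteins can stabilise their clients as well as mark them. Ky is a different kind of protein, with a transglutaminase-like domain, which sits at the Z-disc with filamin C and is mutated in the kyphoscoliotic mouse. All of these genes have been studied mostly in skeletal muscle, and the embryonic ventricle is a setting in which their transcripts are read here beside those of the heart's own muscle genes.

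PolyA RNA from mouse heart ventricles at embryonic day 15.5 was measured by RNA-seq, in 4 libraries of each of 2 genotypes. The mutant, called Nrg1GOF here, carries a Rosa26 allele from which neuregulin-1, an ErbB receptor ligand, is expressed after Cre recombination. Its genotype is spelled Rosa26Nrg-1;Nkx5.5-Cre in the sample labels, whereas the series title names the cardiac driver as Nkx2.5-Cre. The controls are labelled WT, and the labels do not say whether they carried either allele. Nkx2.5-Cre is known to act in the cardiac progenitor lineage, which gives rise to more than ventricular cardiomyocytes, and the cells that expressed the transgene in these hearts were not measured. The design text gives 1 ventricle per replicate while the tissue label reads heart ventricles, so whether 1 or both ventricles of a heart were taken, and which, is not clear. Nothing says whether embryos were littermates.

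Library totals ran from 18754259 to 26786039 counts in 7 libraries, and Nrg1GOF library 4 had 8038641. A floor of 3 counts corresponded to 0.373 CPM (counts scaled to a common library total) in that library and to at most 0.160 CPM in the others, and the lowest count of any of the 6 genes in any library was 30. WT libraries 1 and 2 resembled each other more than they did WT libraries 3 and 4 in several transcripts, among them the red blood cell markers. A gene was called when its adjusted p from the edgeR quasi-likelihood test was under 0.05, which held for 4467 genes (28.7%), 1993 of them lower in Nrg1GOF (12.8%) and 2474 higher (15.9%). The median log2 fold change of all tested genes was -0.01.

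All 6 genes were lower in Nrg1GOF. Each was called, against 12.8% of tested genes called lower, and in each the highest Nrg1GOF library lay below the lowest WT library, which was so for 14.1% of tested genes. Their log2 fold changes ran from -0.49 in *Klhl30* to -1.94 in *Ky*, with a median of -0.95. The 3 genes with a log2 fold change of -1 or lower were *Klhl40*, *Klhl41* and *Ky*, and 0.911% of tested genes were both called and that low. With the mean level of atrial markers as a covariate 4 of the 6 were called, *Klhl38* and *Klhl40* no longer being so. In that fit 1417 of 15580 genes were called, 555 of them lower. Most atrial markers were higher in Nrg1GOF, so this covariate shares part of the genotype difference. It also widened the errors, the SE of *Klhl38* going from 0.14 to 0.21. What a call lost in that fit comes from was not tested. Since the contrast chose the group, the counts of the 6 genes are a description and nothing is read from them.

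**Figure D1:**
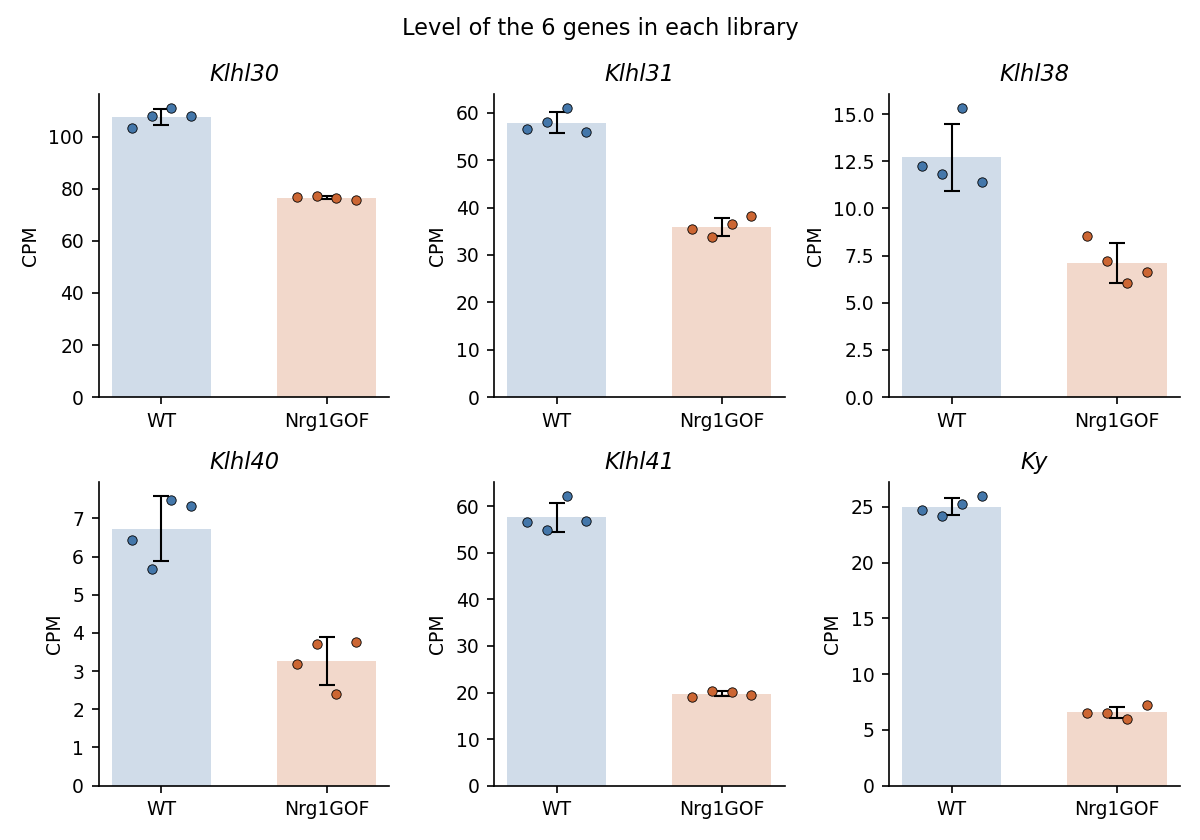
Normalised level in CPM of each of the 6 genes, 1 panel per gene with its own linear axis from 0; bars are genotype means, error bars are SD (n = 4) and points are libraries. In every panel the 4 Nrg1GOF points lie below the 4 WT points, with the widest relative gap in *Klhl41* and *Ky*.

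*Klhl41* (ENSMUSG00000075307) lies on chromosome 2 at chr2:69670120-69684230 on the plus strand of GRCm38. Its protein is a sarcomeric client-binding partner of cullin-3 that stabilises nebulin and binds Nrap, a scaffold used while myofibrils form. In WT libraries 1 to 4 it stood at 56.7, 54.9, 62.1 and 56.8 CPM. In Nrg1GOF libraries 1 to 4 it stood at 19.1, 20.2, 20.01 and 19.5 CPM. The Nrg1GOF libraries kept within a narrow band far under the WT libraries, and the highest of them reached 36.8% of the lowest WT library. The fitted level in Nrg1GOF was 34.2% of that in WT, a log2 fold change of -1.55 (SE 0.06, n = 4 per genotype), which placed the gene 63rd from the lowest of all tested genes.

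The window of 250 bases before the annotated start of *Klhl41*, at chr2:69669870-69670119 on the plus strand, is printed because this is the kelch-like gene with the largest difference, and because it was the only one of the 4 promoters found for the group that held a MEF2 site. Capitals mark the E-boxes (CANNTG, the letters read by basic helix-loop-helix factors) and the MEF2 site. The sequence is from RefSeq, build GRCm38.p6.
Klhl41: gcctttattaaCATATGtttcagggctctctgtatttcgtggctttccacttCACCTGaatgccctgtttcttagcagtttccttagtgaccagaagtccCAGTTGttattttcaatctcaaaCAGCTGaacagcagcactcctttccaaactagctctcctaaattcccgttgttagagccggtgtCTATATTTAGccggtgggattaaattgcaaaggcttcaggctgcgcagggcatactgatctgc

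This window held 4 E-boxes and, from 63 to 54 bases before the start, the MEF2 site CTATATTTAG. Of 32851 promoters of the same length, 66.2% held at least 1 E-box and 2.92% a MEF2 site, both strands read. A match is a run of letters and was not tested as a binding site.

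*Ky* (ENSMUSG00000035606), at chr9:102505750-102546239 on the plus strand, had the largest difference of the group. It stood at 24.7, 24.2, 25.3 and 25.9 CPM in WT libraries 1 to 4. It stood at 6.53, 6.52, 5.94 and 7.25 CPM in Nrg1GOF libraries 1 to 4. The groups were far apart, the highest Nrg1GOF library being at 29.9% of the lowest WT library. The fitted level was 25.98% of WT, a log2 fold change of -1.94 (SE 0.08, n = 4 per genotype), 31st from the lowest of all tested genes. The counts behind these values were 58 to 144 in Nrg1GOF and 444 to 646 in WT.

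*Klhl40* (ENSMUSG00000074001), at chr9:121777607-121783818 on the plus strand, codes for a protein that stabilises nebulin and leiomodin 3 on the thin filament. WT libraries 1 to 4 were at 6.42, 5.67, 7.48 and 7.33 CPM. Nrg1GOF libraries 1 to 4 were at 3.18, 3.71, 2.39 and 3.75 CPM. All 4 Nrg1GOF libraries lay under all WT libraries, but on few reads, with 30 to 78 counts in Nrg1GOF and 104 to 185 in WT. The fitted level was 47.8% of WT (log2 fold change -1.07, SE 0.17, n = 4 per genotype).

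A stretch upstream of *Klhl40*, at chr9:121777357-121777498 on the plus strand, is printed beside that of *Klhl41* because the 2 proteins share nebulin as a client. It ends 108 bases before the annotated start and is from the same RefSeq build, again with E-boxes in capitals.
Klhl40: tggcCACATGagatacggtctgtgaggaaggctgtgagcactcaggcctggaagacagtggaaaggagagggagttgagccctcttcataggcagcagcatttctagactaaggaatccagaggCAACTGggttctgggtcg

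The whole window of 250 bases of *Klhl40* held 3 E-boxes and no match to the MEF2 site. The last E-box lay from 10 to 5 bases before the start used here, in the part not printed, which RefSeq already places within the gene. The window of *Ky* held 1 E-box and that of *Klhl31* none. Matches to GATAA, which 22.6% of promoters held, and to the CArG box, which 1.47% held, were absent from all 4 windows. *Klhl30* and *Klhl38* had no entry in the promoter table.

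*Klhl31* (ENSMUSG00000044938), at chr9:77636500-77660127 on the plus strand, codes for a muscle protein whose loss in mice causes a myopathy and which regulates the turnover of filamin C. It was at 56.6, 58.1, 61.0 and 55.9 CPM in WT libraries 1 to 4. It was at 35.5, 33.7, 36.4 and 38.3 CPM in Nrg1GOF libraries 1 to 4. The difference, to 62.0% of WT (log2 fold change -0.69, SE 0.06, n = 4 per genotype), was smaller than in *Klhl41*, with which it had nearly the same CPM in WT. *Klhl31*, *Klhl40* and *Ky* all lie on chromosome 9, far from one another.

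*Klhl38* (ENSMUSG00000022357), at chr15:58314573-58324169 on the minus strand, and *Klhl30* (ENSMUSG00000026308), at chr1:91351016-91362416 on the plus strand, are less studied members expressed in muscle. *Klhl38* was at 12.3, 11.8, 15.3 and 11.4 CPM in WT libraries 1 to 4 and at 8.53, 7.24, 6.07 and 6.63 CPM in Nrg1GOF libraries 1 to 4. WT library 3 was the highest and Nrg1GOF library 3 the lowest, and the groups did not overlap. The fitted level was 56.2% of WT (log2 fold change -0.83, SE 0.14, n = 4 per genotype). *Klhl30* was at 103, 108, 111 and 108 CPM in WT libraries 1 to 4 and at 76.8, 77.4, 76.6 and 75.8 CPM in Nrg1GOF libraries 1 to 4. Its Nrg1GOF libraries were nearly identical, and its difference was the smallest of the group, to 71.3% of WT (log2 fold change -0.49, SE 0.05, n = 4 per genotype). *Klhl30* was 1034th from the lowest of all tested genes, far behind *Klhl41* in that order.

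How far each value belongs to its gene alone differed between members. No stretch of 60 bases, the read length, in the transcripts of *Klhl30*, *Klhl31* or *Ky* occurred in a transcript of another gene. In *Klhl41* 4.01% did, all of them near the end of the transcript. In *Klhl38* 61.9% lay opposite the antisense gene *Gm15943*, which had 1 to 6 counts per library, and in *Klhl40* 19.7% lay opposite *Gm47108*, which had 2 to 5 counts in Nrg1GOF and 9 to 20 in WT. The kit marks strand, but the strand setting of the counting is not given in the sources used here, so *Klhl38* and *Klhl40* carry that uncertainty.

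Compared per length, as TPM (transcript reads per length, scaled to a common total), the order of the levels in WT was *Klhl30* at 82.3 ± 2.86 (SD, n = 4), *Klhl41* at 53.9 ± 3.005, *Klhl31* at 21.1 ± 0.95, *Klhl38* at 13.6 ± 1.958, *Ky* at 10.1 ± 0.27 and *Klhl40* at 6.71 ± 0.83. The WT libraries of neighbours in that order did not overlap. *Klhl30* stood at the 88.5th percentile of tested genes by this measure and *Klhl40* at the 33.1st. In Nrg1GOF, *Klhl30* was at 62.4 ± 2.56 TPM, *Klhl41* at 19.6 ± 1.00, *Klhl31* at 13.9 ± 0.65 and *Klhl38* at 8.09 ± 1.23. The last places changed over, with *Klhl40* at 3.44 ± 0.58 and *Ky* at 2.82 ± 0.13 TPM, but this pair did not separate, since *Klhl40* ran from 2.64 to 3.94 TPM and *Ky* from 2.66 to 2.97.

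The summed level of the 6 genes was 188 ± 8.60 TPM in WT and 110.2 ± 3.38 in Nrg1GOF (SD, n = 4). *Klhl41* made up 28.7% of that sum in WT and 17.8% in Nrg1GOF, and *Ky* 5.41% and 2.56%. *Klhl30* went the other way, from 43.9% to 56.6%, although its own level was lower. The shares of *Klhl31* (11.2% and 12.6%), *Klhl38* (7.22% and 7.33%) and *Klhl40* (3.57% and 3.13%) were closer to each other.

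**Figure D2:**
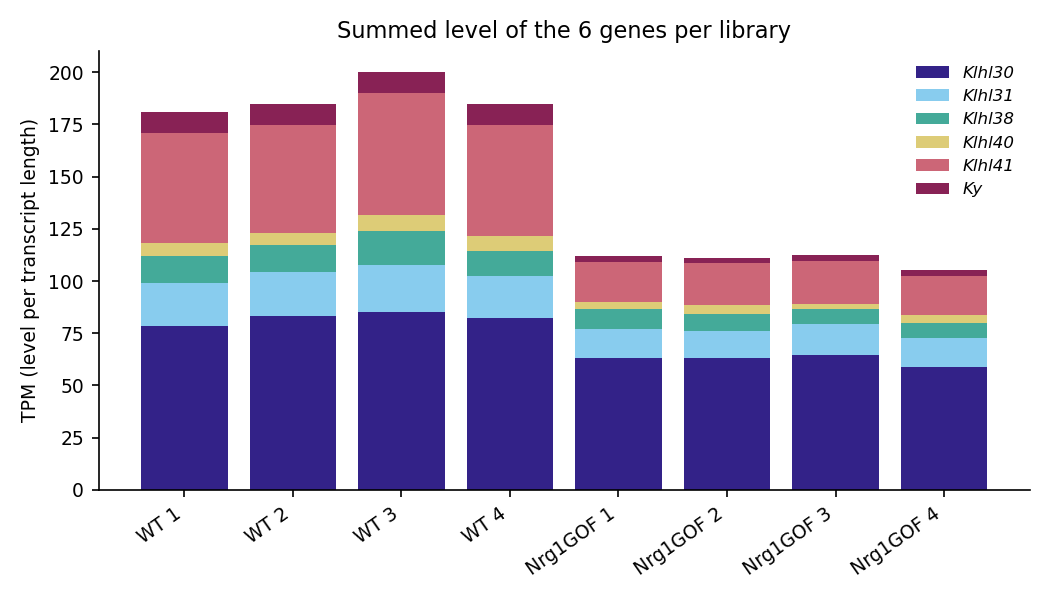
Level per transcript length (TPM) of the 6 genes stacked in each of the 8 libraries, with 1 colour per gene and a linear axis from 0. The stacks reach 180.9 to 200.3 TPM in WT and 105 to 112 TPM in Nrg1GOF, and the *Klhl41* and *Ky* layers take a smaller part of the stack in Nrg1GOF.

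Over the 8 libraries the 15 pairs of these genes correlated at r = 0.913 to 0.996 on log2 CPM, a description that the genotype difference in every gene fixes. Around the genotype means the same pairs ranged from -0.03 to 0.85, with a median of 0.25, and the lowest was *Klhl41* with *Ky*. Libraries share depth and composition, so these values carry no test. The genes whose log2 CPM followed *Klhl41* most closely, of 13048 compared over 8 libraries, were *Hey2* (r = 0.999), *Rbm20* (0.997), *Ppp1r1b* (0.997), *Klhl30* (0.996) and *Ppargc1a* (0.995). Around the genotype means their r was 0.648, 0.320, 0.529, 0.572 and 0.133 in that order. *Hey2*, a Notch-related repressor gene and a marker of compact myocardium, was at 187 ± 8.81 CPM in WT and 52.9 ± 1.37 in Nrg1GOF (log2 fold change -1.82, SE 0.05). *Rbm20* regulates titin splicing, *Ppp1r1b* codes for a phosphatase inhibitor and *Ppargc1a* for a coactivator of mitochondrial genes, and their log2 fold changes were -0.76, -2.17 and -0.90. *Ky* was followed most closely by *Hey2* (0.998), *Pkp4* (0.998), *Mtus2* (0.997), *Dlst* (0.996) and *Bzw2* (0.996), with r around the genotype means of 0.612, 0.640, 0.705, 0.969 and 0.685. *Pkp4* codes for a plakophilin of cell junctions and *Dlst* for a tricarboxylic acid cycle enzyme, and the log2 fold changes of *Pkp4*, *Mtus2*, *Dlst* and *Bzw2* were -0.47, -0.82, -0.36 and -0.46.

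The ventricle holds more than 1 cell type, and fewer cells of a type cannot be told apart from less RNA per cell in such tissue. Several defining markers of skeletal muscle were close to nothing: *Myod1* and *Pax7* had 0 counts in every library, *Myf5*, *Mymk* and *Tnnc2* at most 1, and *Myf6* and *Mymx* at most 3. *Myog* had 6 to 22 counts per library. *Pax3* had 0 to 19, reaching 0.81 CPM in Nrg1GOF and 0.11 in WT. Of 19 skeletal muscle markers 6 were tested, of which *Myh8*, *Actn3*, *Chrng* and *Myh1* were higher, *Tnni2* lower and *Myog* not called, and the list summed to 12.5 to 16.8 CPM in WT and 17.8 to 21.8 in Nrg1GOF. Cardiomyocyte markers were abundant but lower in sum, at 41474 to 42961 CPM in WT and 31029 to 37223 in Nrg1GOF, with 9 of 12 called lower, 3 not called and a median log2 fold change of -0.35. Atrial markers summed to 1035 to 1171 CPM in WT and 1677 to 1840 in Nrg1GOF, with 5 of 8 higher. Fibroblast and epicardial markers summed to 2761 to 3668 and 5141 to 6600 CPM, with 8 of 9 higher and 1 lower. Endothelial and endocardial markers summed to 1215 to 1242 and 1320 to 1457 CPM, with 5 of 8 higher. The 8 red blood cell markers summed to 4416 to 13037 CPM in WT and 5432 to 8897 in Nrg1GOF. The part of the fibroblast and epicardial, endothelial and red blood cells in the values of the 6 genes was not tested.

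**Figure D3:**
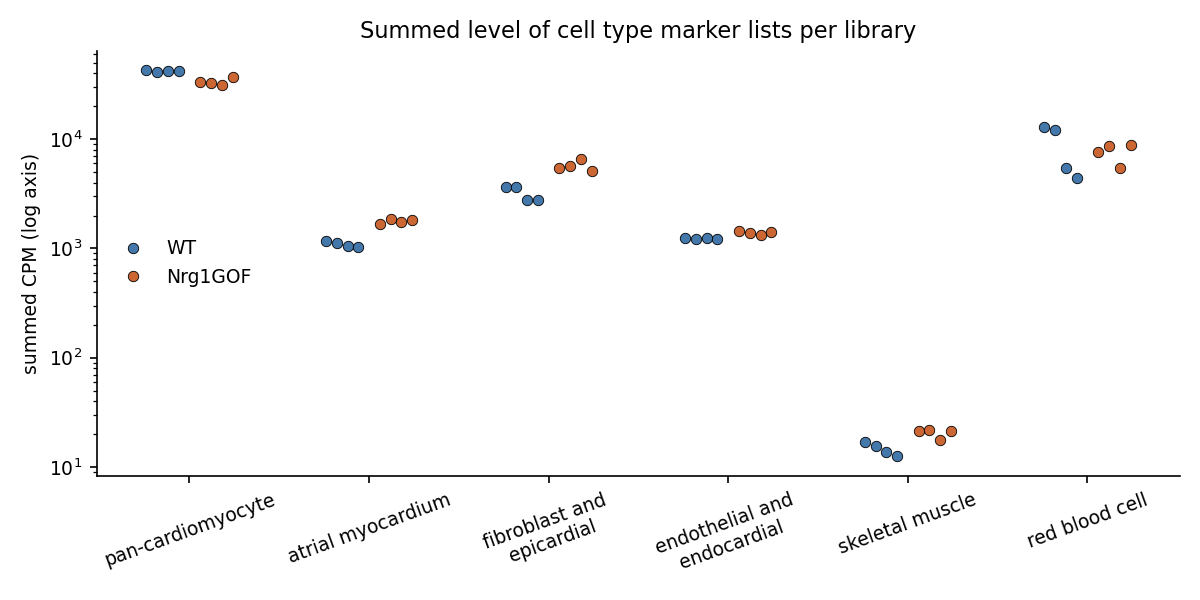
Summed CPM of each of 6 marker lists in the 8 libraries, on a logarithmic axis, with 1 point per library and the genotypes side by side in different colours. The cardiomyocyte points are lower and the atrial and the fibroblast and epicardial points higher in Nrg1GOF, and the skeletal muscle points reach at most 21.8 CPM.

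Set against the mean log2 CPM of the 12 cardiomyocyte markers, which was itself lower by 0.32, all 6 genes remained lower. The difference was -0.16 in *Klhl30*, whose groups then overlapped, -0.36 in *Klhl31*, -0.50 in *Klhl38*, -0.71 in *Klhl40*, -1.22 in *Klhl41* and -1.59 in *Ky*. The 12 markers themselves ran from -0.70 to 0.51 in log2 fold change. The other 5 genes still had every Nrg1GOF library below every WT library. The share of all tested genes for which this held on that scale was not computed, so nothing is read from this count. With the mean level of the atrial markers as a covariate, the log2 fold changes were -0.45 in *Klhl30*, -0.61 in *Klhl31*, -0.61 in *Klhl38*, -0.69 in *Klhl40*, -1.47 in *Klhl41* and -1.82 in *Ky*, again as a description, and *Klhl38* and *Klhl40* were the genes not called in that fit. The scale by cardiomyocyte markers was chosen after the data had been seen.

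The rest of the kelch-like family held genes on both sides. Of 39 other BTB-kelch genes tested, 6 were lower (15.4%) and 6 higher (15.4%), close to the share over all tested genes, and their median log2 fold change was -0.0017. Those called lower most were *Ivns1abp* (-0.63, SE 0.16, adjusted p = 0.0176), *Klhl24* (-0.61, SE 0.08, adjusted p = 0.000407), which turns over intermediate filaments, and *Kbtbd12* (-0.49, SE 0.11, adjusted p = 0.00982). Those called higher most were *Klhl6* (0.99, SE 0.07, adjusted p = 1.44e-05), known from lymphoid cells and endothelium, and *Enc1* (0.94, SE 0.15, adjusted p = 0.00131). None of the other members of the family was as low as *Klhl38*, whose log2 fold change was -0.83. *Ivns1abp* lost its call in 4 of 20 alternatives, namely without Nrg1GOF library 1 or 2 (adjusted p = 0.0518 and 0.0579, in a range of 0.000406 to 0.537), with the WT libraries summed in pairs (1 with 2, 3 with 4), and with the atrial covariate, which brought its log2 value to -0.29. *Kbtbd12* lost its call with the summed pairs (log2 value -0.49) and with the atrial covariate (-0.36), with adjusted p from 0.00128 to 0.260 over all alternatives. *Enc1* lost its call with the atrial covariate, which brought its log2 value to 0.46 (adjusted p = 0.0639, the highest of a range from 2.16e-08). With the summed pairs 3 of these genes were called lower, and with the atrial covariate 2 were lower and 3 higher.

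**Figure D4:**
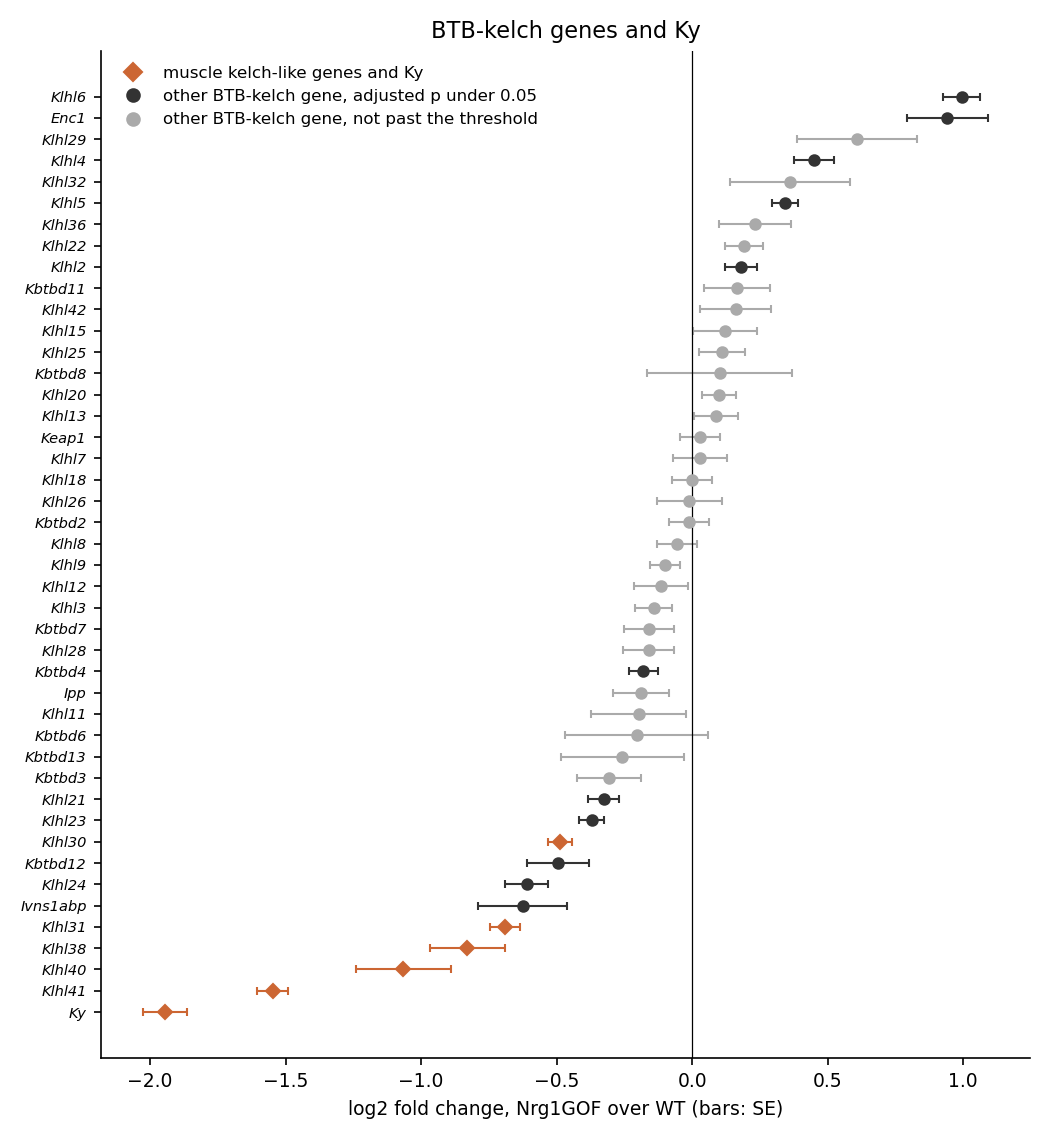
Log2 fold change (Nrg1GOF over WT) of the 6 genes (orange diamonds) and of other BTB-kelch genes tested (circles, black where the adjusted p was under 0.05 and grey otherwise), ordered by value, with bars of 1 SE. The 6 genes hold the low end together with *Ivns1abp*, *Klhl24* and *Kbtbd12*, and the other family members lie on both sides of 0.

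The shared machinery of cullin-3 ligases differed little between genotypes. *Cul3*, the scaffold, was at 174.5 CPM in WT and 159 in Nrg1GOF (log2 fold change -0.13, SE 0.06, adjusted p = 0.150), and *Rbx1*, the RING subunit, was at -0.04 on the same scale (SE 0.06, adjusted p = 0.613). Of 24 genes of the machinery 5 were called lower (20.8%, beside 12.8% of all tested genes), 19 were not called, and the median log2 fold change was -0.11. Among the 5 were *Dcun1d2* (-0.23, SE 0.05, adjusted p = 0.00797) and *Dcun1d1* (-0.20, SE 0.06, adjusted p = 0.0254), which help attach Nedd8 to cullins, and *Cand2* (-0.22, SE 0.05, adjusted p = 0.00763), a muscle-enriched cullin exchange factor. These were small differences, and the count depended on the libraries, with 2 genes lower without Nrg1GOF library 2 or WT library 3, 3 without Nrg1GOF library 3, WT library 2 or WT library 4, and 7 without Nrg1GOF library 1. With the summed WT pairs and with the atrial covariate edgeR called 0 of them lower, against 4 and 2 at an unadjusted p under 0.05, whereas DESeq2 on all libraries called 6. *Dcun1d1* lost its call in 6 of 20 alternatives, without Nrg1GOF library 2 or 3 or WT library 2 or 3, with the summed WT pairs and with the atrial covariate (adjusted p from 0.0164 to 0.225 over all alternatives). *Cand2* lost its call under the latter pair of settings (range 8.28e-05 to 0.150), as did *Dcun1d2*, which also lost it with libraries thinned to the smallest total (range 0.00594 to 0.107). With the summed pairs and the atrial covariate the log2 values were -0.21 and -0.20 in *Cand2* and -0.22 and -0.24 in *Dcun1d2*. With thinned libraries *Dcun1d2* was at -0.15. *Cul3* passed only without Nrg1GOF library 1 (-0.19, adjusted p = 0.0323, in a range of 0.0323 to 0.390).

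The thin filament genes on which the proteins of *Klhl40* and *Klhl41* act were mixed. Nebulin, *Neb*, was barely expressed and variable, at 3.14 ± 1.86 CPM in WT and 4.62 ± 1.299 in Nrg1GOF (log2 fold change 0.56, SE 0.39, adjusted p = 0.319). *Lmod3*, which nucleates actin filaments, was at 68.1, 59.6, 59.0 and 61.6 CPM in WT libraries 1 to 4 and at 49.1, 41.4, 40.0 and 51.5 CPM in Nrg1GOF libraries 1 to 4. *Nrap* was at 389, 375, 363 and 374 CPM in WT and at 299.6, 278, 250.2 and 309 CPM in Nrg1GOF. Both fell without overlap between genotypes, *Lmod3* at -0.46 on the log2 scale (SE 0.09, adjusted p = 0.00413) and *Nrap* at -0.40 (SE 0.07, adjusted p = 0.00206). Each lost its call with the atrial covariate at a similar fold, -0.38 for *Lmod3* (adjusted p = 0.129, range 6.02e-05 to 0.129 over all alternatives) and -0.33 for *Nrap* (adjusted p = 0.0863, range 2.03e-06 to 0.0863).

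Of 17 nebulin, leiomodin and nemaline myopathy genes, 7 were lower (41.2%, beside 12.8% of all tested genes), 1 higher and 9 not called, with a median log2 fold change of -0.10. With the atrial covariate 4 were lower, and with the replicate number as a block 2 were higher. *Tnnt1*, slow troponin T, fell the most of those called, from 126.5 to 63.0 CPM (log2 fold change -1.01, SE 0.08, adjusted p = 3.94e-05), followed by the myosin gene *Myo18b* (-0.54, SE 0.05, adjusted p = 9.03e-05) and *Mypn*, myopalladin (-0.48, SE 0.05, adjusted p = 0.00013). The tropomyosin gene *Tpm3* rose (0.33, SE 0.06, adjusted p = 0.00182).

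On the side of *Ky* and *Klhl31*, filamin C did not pass the test. *Flnc* was at 764 ± 112 CPM in WT and 678 ± 46.9 in Nrg1GOF (SD, n = 4; log2 fold change -0.17, SE 0.10, adjusted p = 0.240). *Igfn1*, a Z-disc partner of Ky, had at most 6 counts in any library and was not tested. Of 21 tested genes associated with Ky or filamin C, 6 were lower (28.6%), 3 higher (14.3%) and 12 not called, with a median log2 fold change of -0.09, beside 12.8% lower and 15.9% higher over all tested genes. With the atrial covariate 2 were lower, and scaling by library total gave 5 higher. The protease gene *Capn3* fell from 7.31 to 4.17 CPM (-0.81, SE 0.13, adjusted p = 0.00128), and *Ldb3*, which codes for a Z-disc scaffold, fell by 0.51 on the log2 scale (SE 0.05, adjusted p = 8.88e-05). *Mybpc1* had a lower mean (-1.36, SE 0.41, adjusted p = 0.0327), but its libraries overlapped, at 6.61 and 6.66 CPM in WT libraries 1 and 2, 3.28 and 2.46 in WT libraries 3 and 4, and 1.18 to 3.0 in Nrg1GOF. *Mybpc1* lost its call in 8 of 20 alternatives: without Nrg1GOF library 1 or 2 or WT library 1 or 2, with the replicate number as a block (log2 fold change -1.32, adjusted p = 0.0758, in a range of 0.00505 to 0.101), with thinned libraries, with the summed WT pairs and with the atrial covariate. *Capn3* lost its call with the atrial covariate at a similar fold (-0.76, adjusted p = 0.0559, the highest of a range from 6.66e-06). The genes that rose were *Xirp2*, an actin-binding gene of cell junctions (1.61, SE 0.17, adjusted p = 0.000138), and the titin-associated stretch genes *Ankrd1* (1.24, SE 0.08, adjusted p = 9.82e-06) and *Ankrd23* (0.72, SE 0.16, adjusted p = 0.00708). Without Nrg1GOF library 3, 6 genes of this list were higher.

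Other ubiquitin ligase and chaperone genes of muscle moved in both directions. The list, called ubiquitin ligase genes for short in later counts, also holds 2 genes that are not ligase genes. They are *Smyd1*, which was not called, and the chaperone gene *Unc45b*, which was called lower. Of 18 tested, 10 were lower (55.6%, beside 12.8% of all tested genes), 3 higher (16.7%, beside 15.9%) and 5 not called, with a median log2 fold change of -0.46. *Trim63*, the atrophy ligase MuRF1, fell from 173 to 90.98 CPM (-0.93, SE 0.07, adjusted p = 2.63e-05), *Asb12* from 3.06 to 0.96 CPM (-1.69, SE 0.25, adjusted p = 0.000856), and *Asb15* fell by 0.88 on the log2 scale (SE 0.21, adjusted p = 0.0108). *Trim72*, a membrane repair gene (1.52, SE 0.16, adjusted p = 0.00013), *Trim54*, which codes for MuRF3 (1.32, SE 0.14, adjusted p = 0.000169), and *Fbxo32*, the atrophy ligase atrogin-1 (0.47, SE 0.07, adjusted p = 0.000812), rose. The count of lower genes was 6 with the summed WT pairs and 5 with the atrial covariate. *Asb15* lost its call under both settings, with a log2 fold change of -0.48 under the latter (adjusted p from 0.00264 to 0.390 over all alternatives), and *Fbxo32* with the atrial covariate (adjusted p = 0.0516, the highest of a range from 3.29e-07).

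**Figure D5:**
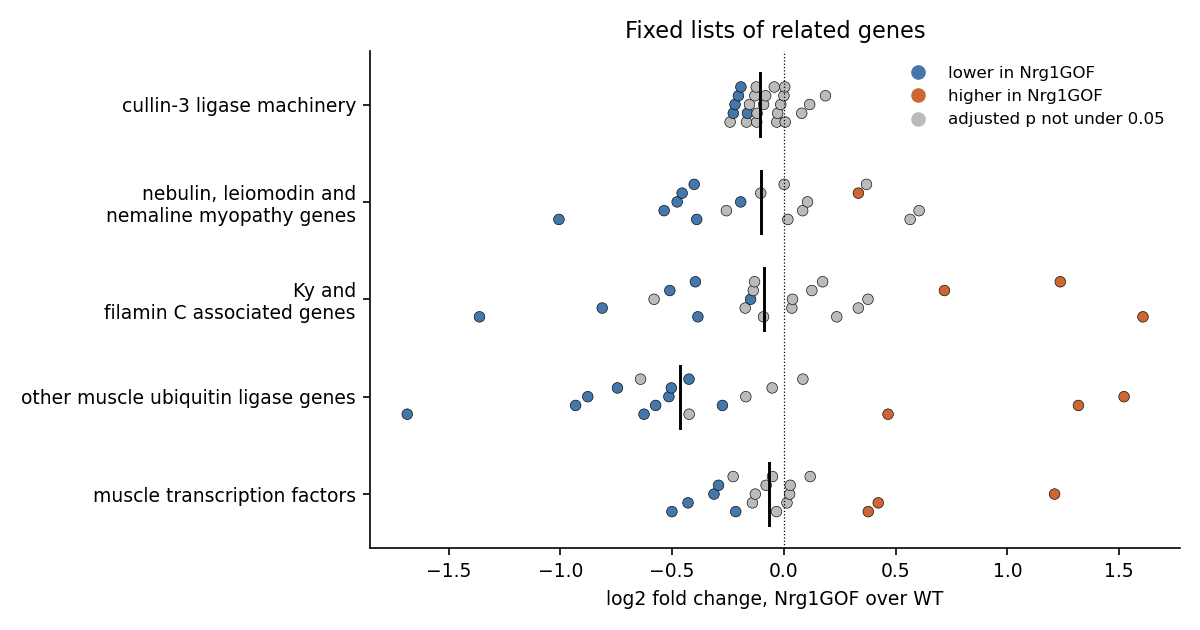
Log2 fold change (Nrg1GOF over WT) of every tested gene in 5 lists, 1 row of points per list, with coloured points for genes called at an adjusted p under 0.05, grey points for the others and a vertical bar at each median. The cullin-3 genes lie close to 0, and the other muscle ubiquitin ligase genes spread from -1.69 in *Asb12* to 1.52 in *Trim72*.

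Transcription factors of striated muscle were also examined, since MEF2, serum response factor with myocardin, and GATA factors are the usual regulators of such genes. Of 18 tested, 5 were lower (27.8%), 3 higher (16.7%) and 10 not called, with a median log2 fold change of -0.07, beside 12.8% lower and 15.9% higher over all tested genes. With the summed WT pairs 2 were lower, and with the atrial covariate 1 was higher. *Myocd* (-0.50, SE 0.07, adjusted p = 0.000833), *Gata6* (-0.43, SE 0.05, adjusted p = 0.000179) and *Mef2d* (-0.31, SE 0.07, adjusted p = 0.00833) fell. *Nfatc1*, a calcineurin target of the endocardium (1.21, SE 0.07, adjusted p = 4.22e-06), *Tbx5* (0.42, SE 0.08, adjusted p = 0.00434) and *Hand1* (0.38, SE 0.11, adjusted p = 0.0237) rose. *Hand1* lost its call in 5 of 20 alternatives, without Nrg1GOF library 2, WT library 2 or WT library 4, with the summed WT pairs and with the atrial covariate (adjusted p from 0.00632 to 0.112 over all alternatives). Its log2 value was 0.55 with the atrial covariate and 0.35 to 0.38 in the others of these fits. *Mef2d* lost its call with the summed WT pairs (-0.31) and with the atrial covariate (-0.23), with adjusted p from 0.000186 to 0.247 over all alternatives. *Tbx5* lost its call with the atrial covariate, which brought its log2 value to 0.17 (adjusted p = 0.292, the highest of a range from 7.08e-05).

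Of the 12 nearest tested protein-coding neighbours of the 6 genes, 4 were called lower, 2 higher and 6 not called, with a median log2 fold change of -0.04, beside 12.8% of all tested genes called lower and 15.9% higher. Beside *Klhl41*, *Bbs5* lay 2549 bases away and was not called (0.13, adjusted p = 0.544), while *Fastkd1*, a mitochondrial gene 2585 bases away, fell by 0.53 on the log2 scale (SE 0.07, adjusted p = 0.000381). *Hhatl*, 198 bases from *Klhl40*, was at 13.0 CPM in WT and 11.7 in Nrg1GOF (-0.16, SE 0.12, adjusted p = 0.373), and *Zfp651* on its other side was not called either (-0.10, adjusted p = 0.154). Beside *Ky* both *Ephb1* (-0.63, SE 0.15, adjusted p = 0.0117) and *Cep63* (-0.29, SE 0.07, adjusted p = 0.0104) were called lower, the first 151057 and the second 38349 bases away. *Ephb1* lost its call with thinned libraries and with the summed WT pairs (adjusted p from 0.00376 to 0.170 over all alternatives), and *Cep63* with the atrial covariate (range 0.00358 to 0.288). The neighbours of *Klhl38*, *Fbxo32* and *Fam91a1* (0.44, SE 0.05, adjusted p = 0.000232), rose while *Klhl38* itself was lower. *Lrrc1* beside *Klhl31* fell (-0.52, SE 0.07, adjusted p = 0.000545). *Gclc* beside *Klhl31* (0.10, adjusted p = 0.255), and *Scly* (0.03, adjusted p = 0.846) and *Erfe* (0.38, adjusted p = 0.269) beside *Klhl30*, did not pass the test.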

How the data were processed

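PolyA RNA (100 ng of total RNA per library, directional kit) was sequenced as single reads of 60 bases. The authors deposited expected counts per gene, estimated with RSEM 1.3.1 after adapter trimming with cutadapt per the submitters' processing notes, for GRCm38 and Ensembl 91; the aligner and the strand setting are not given in the sources used here. Between 8.42% and 13.18% of the expected counts of a library were not whole, and they were rounded before testing. Genotype was taken from the labels. Genes kept by filterByExpr were tested in edgeR 4.0.16 (R 4.3.3) with TMM scaling, a quasi-likelihood fit on genotype alone and Benjamini-Hochberg adjustment over all 15580 genes. CPM values use TMM library sizes, and log2 CPM a prior count of 2. TPM values were computed from the counts and the longest annotated transcript of each gene. DESeq2 1.42.0 and limma 3.58.1 served as alternatives.

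The members and all gene lists were chosen with earlier results of these data known. The text names the 6 genes, up to 3 called genes at either end of each list, direct partners (*Neb*, *Nrap*, *Lmod3*, *Flnc*, *Igfn1*, *Cul3*, *Rbx1*), the 5 genes most like *Klhl41* and *Ky*, and the nearest neighbours; other genes named were chosen after their values were seen. Values of 1 other BTB-kelch gene, which the counts of its list include, are not reported or plotted here. Symbols matched 53274 of 53465 identifiers. Coordinates are from GENCODE M21 on GRCm38, and 4 of the 6 promoters were in the RefSeq table. Nothing says whether libraries of a genotype came from separate litters, so p-values measure only the spread between these libraries. Counts of 15580 genes were also simulated with known changes and with libraries drawn independently. There 93 of 108 genes changed by 1 and 87 of 90 changed by 2 on the log2 scale were recovered, beside 15 false calls. The changed genes all had a mean above 1 CPM and were far fewer than those called in the data. The run therefore does not give the share of false calls in the data.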

Additional observations from a re-analysis of the deposited data

Results flagged for a closer look

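In groups of 4 libraries, 1 library stood apart when its gap to the nearest other exceeded Dixon's 95% critical value as a ratio to the group's range. None of the 6 genes met this in either genotype. Of 126 groups of values examined, 6 did, and chance gives about 6.3. Nrg1GOF library 4 stood apart in its total of 8038641 counts (ratio 0.864). WT library 1 did in *Trim63*, at 182 CPM against 169.9 to 170.6 (ratio 0.946). Nrg1GOF library 1 did in *Fbxo32*, at 79.3 CPM against 67.9 to 69.1 (ratio 0.890), and in *Gata6*, at 164.6 CPM against 176 to 178 (ratio 0.874). Nrg1GOF library 3 did in *Bzw2*, at 133.6 CPM against 141 to 142 (ratio 0.918), and Nrg1GOF library 2 in *Fastkd1*, at 36.6 CPM against 38.5 to 38.8 (ratio 0.847).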

How the results depend on the processing

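For the 6 genes, whose difference between genotypes is a description, the log2 fold changes over the alternatives set out at the start ran from -0.51 to -0.45 in *Klhl30*, -0.73 to -0.61 in *Klhl31*, -0.94 to -0.61 in *Klhl38*, -1.15 to -0.69 in *Klhl40*, -1.57 to -1.47 in *Klhl41* and -1.97 to -1.82 in *Ky*. *Klhl38* and *Klhl40* were each not called in 1 of 20 alternatives, the atrial covariate. Leaving out 1 library at a time, 3239 to 4261 genes were called and 1370 to 1868 called lower. In the same runs the lower counts were 4 to 6 for other BTB-kelch genes, 2 to 7 for cullin-3 machinery, 6 to 7 for the nemaline list, 4 to 6 for the Ky and filamin C list, 9 to 11 for ubiquitin ligase genes and 4 to 6 for transcription factors, and the higher counts 5 to 6, 0, 1, 3 to 6, 3 and 2 to 3.

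Summing WT libraries 1 and 2, and 3 and 4, left 2464 genes called and 916 lower, with lower counts of 3 for other BTB-kelch genes, 0 for cullin-3 machinery (4 at an unadjusted p under 0.05), 6 for ubiquitin ligase genes and 2 for transcription factors. The atrial covariate left 1417 genes called and 555 lower. Its lower counts were 2 for other BTB-kelch genes, 0 for cullin-3 machinery (2 at an unadjusted p under 0.05), 4 for the nemaline list, 2 for the Ky and filamin C list and 5 for ubiquitin ligase genes, and its higher counts 3 for other BTB-kelch genes and 1 for transcription factors. In the other fits the cullin-3 machinery had 2 to 7 lower genes, with 6 by DESeq2 and by limma, 3 by library total scaling, 3 with no filter and 2 with libraries thinned to the smallest total. Scaling by library total also gave 5 higher genes in the Ky and filamin C list, and turned 55.4% of calls being higher into 65.4%.

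The labels do not say what a replicate number marks, and the libraries were not treated as paired. Deviations of libraries with the same number correlated at 0.11 on average and 0.05 at the lowest, those with other numbers at -0.04 on average, and 4 of 8 libraries correlated best with their own number, which leaves a shared origin neither shown nor absent. With the replicate number as a block, 2 nemaline genes were higher and *Mybpc1* lost its call. No call changed on another gene outside the 6 that was followed over the alternatives. Genes named only after their values were seen were not followed in this way. *Rbx1* (0.052) and *Hhatl* (0.22) turned positive with the atrial covariate, and *Scly* negative without Nrg1GOF library 2 or WT library 2 (-0.020 to 0.065 over single left-out libraries), none of them called. The cause of these changes was not tested. Among all fold changes of the other genes followed, 1071 kept their direction and call, 44 lost the call and 1 gained it. *Klhl40*, *Asb12* and *Neb* rest on few counts, which limits their precision.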

Other observations

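Around the genotype means, *Klhl40* and *Ky* correlated at 0.85 over the 8 libraries, the highest of the 15 pairs, and 12 of the pairs were positive; *Dlst* followed *Ky* at 0.969. *Unc45b*, which codes for a myosin chaperone, was at 365 ± 30.5 CPM in WT and 218 ± 12.7 in Nrg1GOF (SD, n = 4; log2 fold change -0.74, SE 0.07, adjusted p = 8.66e-05), while *Asb2*, whose ligase acts on filamins, was at 342 ± 8.29 and 330.5 ± 29.8 CPM (-0.05, SE 0.07, adjusted p = 0.611); both were chosen after their values were seen. *Myh8*, perinatal myosin, rose from 4.70 to 11.2 CPM (1.25, adjusted p = 0.00122) and *Tnni2*, fast troponin I, fell from 6.49 to 2.35 CPM (-1.50, adjusted p = 0.000605), among the few skeletal muscle markers with enough counts to test.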
